A study of Mus musculus with 17 samples.

Results

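The genes described here encode the proteins of the mitochondrial ribosome that carry the gene names Mrpl (large subunit) and Mrps (small subunit). They were taken by symbol, as every row of the deposited count tables that begins with Mrpl or Mrps and a number, pseudogene symbols left out, which gave 76 of 20572 genes, 47 Mrpl and 29 Mrps. The groups were mouse keratinocytes infected with a lentivirus carrying a short hairpin RNA against Msi2 (knockdown) and the same cells with a scrambled hairpin, each with 3 libraries of polyadenylated RNA and 3 libraries of ribosome footprints. A further 5 libraries held RNA crosslinked to Msi2 (HITS-CLIP) and differed in RNase dilution (1 undiluted, 2 at 1 in 20, 1 at 1 in 50 and 1 at 1 in 75). The 2 at 1 in 20 are not repeats, since 1 is labelled low MW and the other high MW. The labels name no hairpin for these 5 libraries. These cells were irradiated with UVC at 200 mJ/cm2 before Msi2 and its bound RNA were recovered with an antibody. All cells came from 1 kind of culture, C57BL/6 neonatal keratinocytes that became immortal without an introduced gene, kept on mitomycin-treated NIH-3T3 J2 feeder cells for 3 passages and on bare dishes thereafter. Infected cells of both groups were selected with puromycin at 2 ug/ml for 2 days, beginning 2 days after infection, and footprint cultures received cycloheximide for 1 min before harvest. The labels give no hairpin sequence and no sign of whether replicates were cultured separately, so every p-value reflects library-to-library spread that could be technical alone.

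Mitochondrial ribosomes make the few proteins encoded by mitochondrial DNA, all of them subunits of the respiratory chain and ATP synthase. Their RNA comes from mitochondrial DNA, but every one of their proteins is encoded in the nucleus, translated in the cytosol and imported, and many have no counterpart in bacteria. The footprints counted on these genes are therefore those of cytosolic ribosomes. Msi2 is an RNA-binding protein of the Musashi family that binds short UAG-containing elements, often in 3' UTRs, and is known as a regulator of translation and RNA stability in stem and progenitor cells.

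Gene counts per library came to between 9221566 and 26785876 for RNA and between 512256 and 2959625 for footprints. Msi2 footprints stood at 4.53, 0 and 5.12 CPM (counts scaled to library size, with TMM factors) in the knockdown libraries, against 17.1, 16.8 and 18.3 CPM in the scrambled libraries, and no knockdown library reached a scrambled one. The log2 fold change, knockdown over scrambled as throughout, was -2.08 ± 0.41 (SE of the fit; adjusted p = 0.000285), while Msi2 RNA over the coding sequence did not pass the test (-0.29 ± 0.21, adjusted p = 0.283). Summed RNA of 8 keratinocyte markers ranged from 11312 to 12834 CPM in knockdown and from 14175 to 17663 CPM in scrambled libraries. Most of this sum is Krt5 and Krt14; of the 8 markers 4 were lower, and 2, Itgb4 (0.57, adjusted p = 0.00217) and Itga6 (0.55, adjusted p = 0.00819), were higher. The summed RNA of 8 fibroblast markers, 4 of them at 0 in every RNA library, ranged from 9.13 to 10.4 CPM in knockdown and from 4.62 to 7.64 CPM in scrambled libraries, scarce in both groups. Reads aligned to several places made up 21.8 ± 2.45% of the RNA totals in knockdown and 15.2 ± 2.01% in scrambled libraries (SD, n = 3 each). The part of these differences in the results was not tested.

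RNA of mitochondrial ribosomal protein genes was lower in knockdown cells for most of the family. All 76 genes passed the filter on low counts in every comparison, and 59 of them (77.6%) were lower in knockdown at an adjusted p under 0.05, while 1, Mrpl42, was higher. Over all 11117 genes tested, 21.7% were lower and 22% higher (43.8% either way). The median log2 fold change was -0.48 over the 76 genes and 0.00 over all genes, and the fit put 73 of the 76 below 0, against 49.7% of all genes. Single genes ranged from -0.97 (Mrps34) to 0.43 (Mrpl42), so the changes were moderate, with 34 genes at -0.5 or lower and 0 at -1 or lower. For 56 of the 76 genes every knockdown library lay below every scrambled library, against 26.2% of all genes tested. In bulk RNA, fewer transcripts per cell and a shift in the make-up of the culture cannot be told apart.

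The same direction stood in the plain share of reads. Together the 76 genes took 0.486, 0.438 and 0.467% of all gene counts in the knockdown RNA libraries, against 0.595, 0.617 and 0.544% in the scrambled ones. Their share of footprints was 0.499, 0.461 and 0.469% in knockdown and 0.545, 0.555 and 0.567% in scrambled libraries. Neither assay showed an overlap between the groups, and the means were 0.464 ± 0.0242% in knockdown and 0.585 ± 0.0375% in scrambled libraries for RNA, and 0.477 ± 0.0197% in knockdown and 0.556 ± 0.0112% in scrambled libraries for footprints (SD, n = 3 each). Both subunits took part, since Mrpl genes took 0.303 ± 0.0167% of RNA counts in knockdown and 0.378 ± 0.0259% in scrambled libraries, and Mrps genes 0.160 ± 0.00806% in knockdown and 0.207 ± 0.0117% in scrambled libraries.

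**Figure D1:**
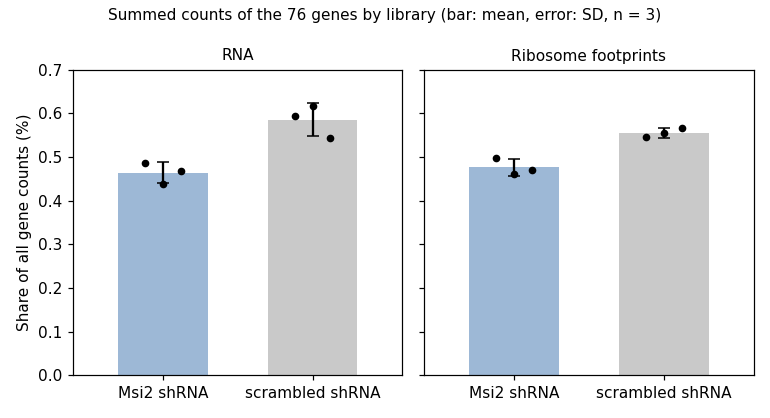
Share of all gene counts (%) taken by the 76 mitochondrial ribosomal protein genes in RNA (left) and ribosome footprints (right); points are single libraries, bars the mean of 3 and whiskers the SD. The 3 knockdown libraries lie between 0.438 and 0.486% in RNA, below the scrambled libraries at 0.544 to 0.617%, and the footprint shares lie closer together.

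Among Mrps genes the lowest fitted change was that of Mrps34, which encodes a mitochondria-specific protein of the small subunit body (chr17:24895120-24896289, GRCm38.p6). Its RNA was 44.2, 40.9 and 45.9 CPM in knockdown libraries, against 86.9, 95.2 and 73.6 CPM in scrambled libraries. Every knockdown library was thus well under the lowest scrambled one, and the log2 fold change was -0.97 ± 0.12 (adjusted p = 1.34e-05). Mrps9, the counterpart of the bacterial head protein S9 (chr1:42851233-42905683), had 69.6, 64.2 and 70.4 CPM in knockdown and 129, 110 and 111 CPM in scrambled libraries, again without overlap (-0.78 ± 0.11, adjusted p = 4.6e-05). Mrps16, the counterpart of the body protein S16, stood at 44.5, 38.3 and 40.8 CPM in knockdown and 64.8, 82.2 and 65.4 CPM in scrambled libraries (-0.79 ± 0.12, adjusted p = 0.00011). Mrps6, a platform protein (chr16:92058336-92112227), had lower counts, at 20.3, 20.3 and 18.9 CPM in knockdown and 41.7, 38.6 and 29.4 CPM in scrambled libraries (-0.89 ± 0.14, adjusted p = 0.000121). All of these genes, named for their small RNA p, kept the knockdown libraries below the scrambled ones. So did 2289 of the 2417 genes called lower in RNA over the whole table. Mrps28, related to bacterial S1, was at 21.7, 21.4 and 22.4 CPM in knockdown and 40.2, 43.2 and 30.1 CPM in scrambled libraries (-0.80 ± 0.14, adjusted p = 0.00028).

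For the large subunit, Mrpl23, at the mouth of the tunnel through which the new protein leaves (chr7:142532467-142540747), led with 58.7, 51.9 and 52.6 CPM in knockdown and 97.1, 116 and 83.8 CPM in scrambled libraries (-0.87 ± 0.13, adjusted p = 5.03e-05). Mrpl48, a mitochondria-specific protein of the central protuberance, had 29.8, 23.6 and 27.6 CPM in knockdown and 55, 50 and 41 CPM in scrambled libraries (-0.86 ± 0.14, adjusted p = 0.000124). In both genes the highest knockdown library stayed under the lowest scrambled one. Mrpl2, which lies beside the catalytic centre, had 76.1, 62.2 and 72.3 CPM in knockdown and 128, 108 and 113 CPM in scrambled libraries (-0.73 ± 0.12, adjusted p = 0.000115). Mrpl4, which lines the tunnel close to that centre, fell to 55.9 ± 3.52 CPM in knockdown, against 90.8 ± 7.95 CPM in scrambled libraries (-0.70 ± 0.11, adjusted p = 0.000122). For Mrpl17, another protein of the tunnel exit, the means were 73.0 ± 4.36 CPM in knockdown and 125 ± 21.1 CPM in scrambled libraries (-0.77 ± 0.12, adjusted p = 0.000131). Near-identical copies could have shared reads for some members, since RefSeq lists pseudogenes named after Mrpl23, Mrpl27, Mrpl48 and Mrps36.

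Every place named here held genes with lower RNA. A further 37 genes were assigned to none of these places, and 28 of them were lower and 1 higher. Over all genes tested in RNA 21.7% were lower. At the exit tunnel all 6 genes passed the test (Mrpl17, Mrpl22, Mrpl23, Mrpl24, Mrpl45, Mrpl47), with a median of -0.52. Around the peptidyl transferase centre, where peptide bonds form, all 5 did (Mrpl2, Mrpl3, Mrpl4, Mrpl16, Mrpl27), with a median of -0.67. In the central protuberance 4 of 5 fell, Mrpl18 being the exception at 0.33 ± 0.16 (adjusted p = 0.112). The stalk, which recruits translation factors, had 3 of 4 lower. Its base protein Mrpl10 changed by -0.39 ± 0.11 (adjusted p = 0.00889) and Mrpl12, present in several copies at its tip, by -0.43 ± 0.13 (adjusted p = 0.0125). Mrpl11, the other base protein, did not pass (-0.15 ± 0.15, adjusted p = 0.441). The small subunit had 6 of 8 genes lower in the head, 5 of 7 in the body and 2 of 4 in the platform. The call of Mrpl12 was lost without knockdown replicate 2 (adjusted p = 0.0673) and when each library's trend with genomic span was removed (-0.28, adjusted p = 0.0655).

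By origin, 22 of 28 mitochondria-specific genes were lower (median -0.42) and 36 of 47 genes with a bacterial counterpart (median -0.51), a difference that was not tested. Mrpl55, lower at -0.38, was placed in neither class. The 3 paralogues of bacterial S18, of which Mrps18a sits in the large subunit and Mrps18b and Mrps18c in the small one, were all lower, by -0.69 ± 0.11, -0.47 ± 0.11 and -0.47 ± 0.13 (adjusted p of 0.000135, 0.00206 and 0.00649). Mrps30, a Mrps gene by name whose protein is part of the large subunit, was lower by -0.34 ± 0.11 (adjusted p = 0.0151). Mrps36, now known as a subunit of the 2-oxoglutarate dehydrogenase complex and not of the ribosome, was at -0.40 ± 0.16 (adjusted p = 0.0487).

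Mrpl42, a mitochondria-specific protein of the large subunit (chr10:95480805-95501949), ran the other way. Its RNA was 221, 233 and 237 CPM in knockdown libraries, against 150, 206 and 157 CPM in scrambled libraries. All knockdown libraries lay above all scrambled ones (0.43 ± 0.13, adjusted p = 0.0114), but the call was lost without knockdown replicate 3 (adjusted p = 0.0574) or without scrambled replicate 1 (adjusted p = 0.0973). Its footprints were 71.3 ± 11.4 CPM in knockdown and 75.2 ± 14.3 CPM in scrambled libraries and overlapped (0.03 ± 0.18, adjusted p = 0.935). The remaining 16 genes passed in neither direction, among them Mrpl30, Mrps2, Mrps7, Mrps21 and Mrps24, all fitted within 0.10 of 0.

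**Figure D2:**
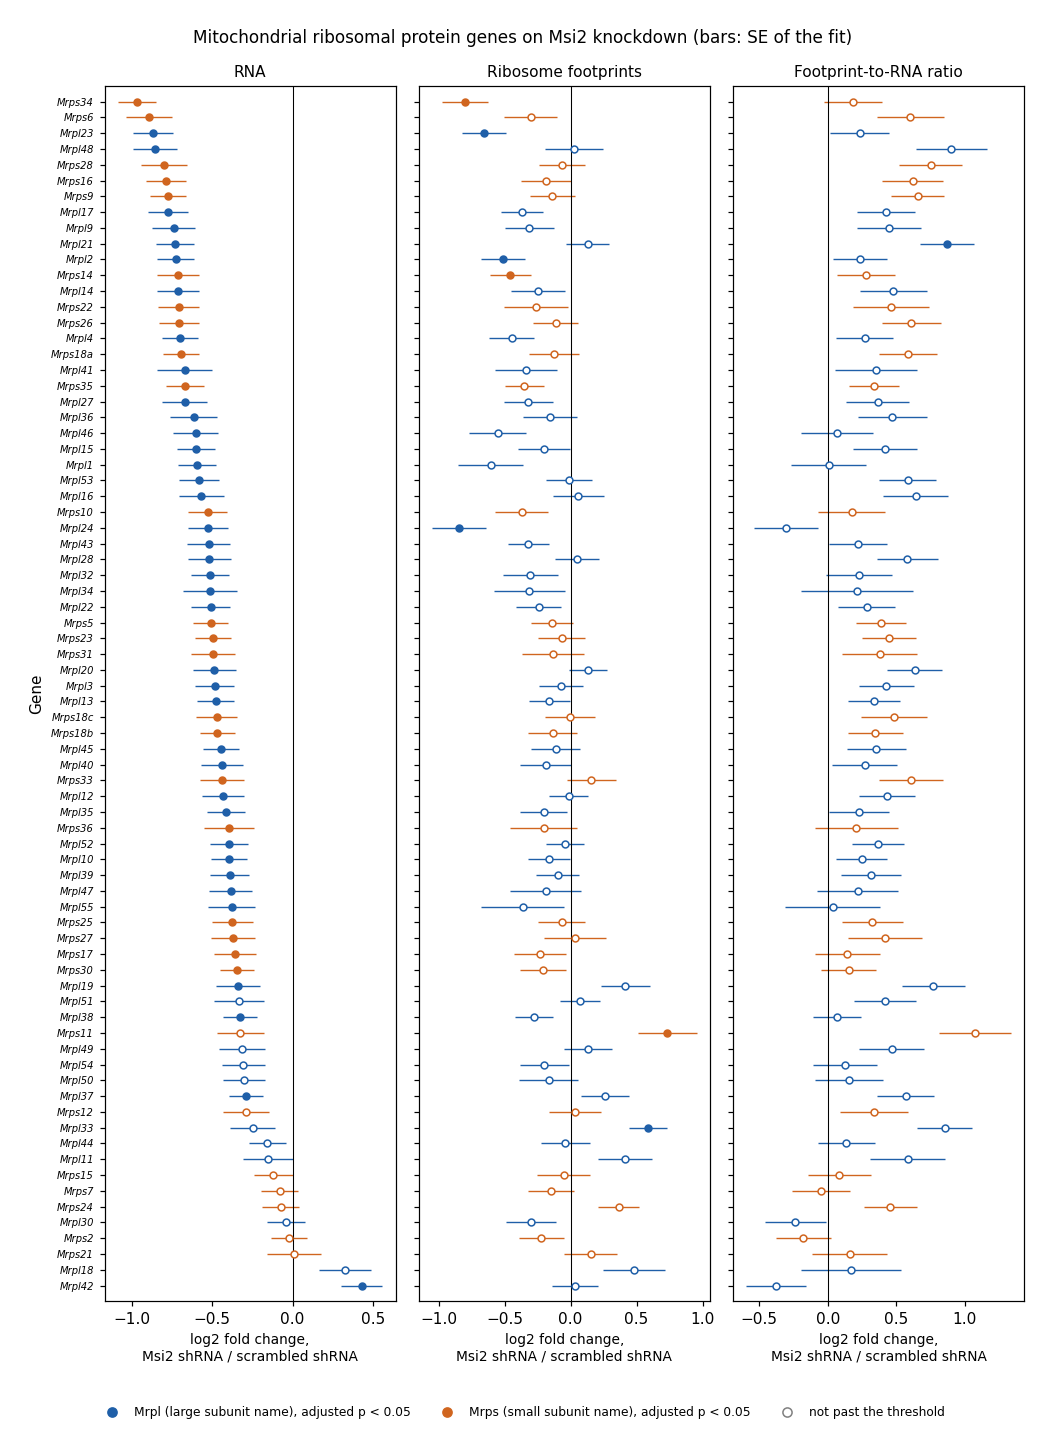
Log2 fold change (Msi2 shRNA over scrambled shRNA) of each of the 76 genes in RNA, ribosome footprints and the footprint-to-RNA ratio, ordered by the RNA change, with bars for the SE of the fit; filled symbols have an adjusted p under 0.05. In RNA 59 genes are filled on the left of 0 and 1 on the right, in footprints 5 and 2, and in the ratio 1, Mrpl21, on the right.

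The genes are short, with a median genomic span of 7690.5 bp against 23628 bp over the tested genes. With each library's trend with span removed, 46 were lower and 2 higher in RNA, at a median of -0.37 (all genes: -0.02). A second property may bear on which reads were counted. By RefSeq positions the whole intervals of 19 of the 76 genes, introns and UTRs included, overlap that of another coding gene. Counts were taken over coding sequence, and overlap of coding sequence was not looked up, so this split does not show whether reads were shared. The sources used here do not state whether counting used the strand, although the RNA kit is directional per the labels. Of these 19 genes 14 were lower, and of the 57 without such an overlap 45 were lower and 1 higher.

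In ribosome footprints few of the same genes passed the test. In knockdown 5 genes had fewer footprints and 2 had more at an adjusted p under 0.05, or 6.58% and 2.63% of the 76, against 7.38% lower and 8.76% higher among the 8969 genes tested. The lower share was near that of all genes and the higher share below it, a difference that was not tested. The median log2 fold change was -0.15 over the 76 genes and -0.01 over all genes, 57 of 76 were fitted below 0 (51.1% of all genes), and 47 lay within 0.25 of 0. Knockdown libraries were all below the scrambled ones for 16 genes (15.4% of all genes tested) and all above for 5 (15.9%). Footprint libraries were smaller, the lowest count of a member being 3 in the smallest library, and the median SE over the 76 genes was 0.19, against 0.13 in RNA.

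Mrps34 had lower footprints as well as lower RNA. Its footprints were 56.9, 64.2 and 58.3 CPM in knockdown libraries, against 81.7, 115 and 116 CPM in scrambled libraries, with no overlap (-0.80 ± 0.18, adjusted p = 0.00107). Tunnel proteins gave another pair. Mrpl24 (chr3:87918131-87923450) stood at 29.2, 38.1 and 32.7 CPM in knockdown and 56.6, 51.4 and 72 CPM in scrambled libraries (-0.85 ± 0.20, adjusted p = 0.00282), and Mrpl23 at 93.7, 62.2 and 80.8 CPM in knockdown and 119, 121 and 159 CPM in scrambled libraries (-0.66 ± 0.16, adjusted p = 0.00403). Again no knockdown library reached a scrambled one. Mrpl2 (60.8 ± 4.07 CPM in knockdown and 85.6 ± 5.23 CPM in scrambled libraries; -0.51 ± 0.17, adjusted p = 0.0303) and the head protein Mrps14 (123 ± 25.6 CPM in knockdown and 172 ± 15.5 CPM in scrambled libraries; -0.46 ± 0.15, adjusted p = 0.0364) completed the 5. The calls of Mrps34 and Mrpl23 held under all 15 alternatives. Those of the others did not: the call of Mrpl24 was lost without knockdown replicate 1 (adjusted p = 0.0627), and those of Mrpl2 and Mrps14 under 6 and 8 alternatives, DESeq2 among them (adjusted p of 0.117 and 0.109).

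More footprints were counted on Mrpl33 and Mrps11, whose RNA did not pass the test. Without scrambled RNA replicate 3 the RNA of both was called lower (-0.40, adjusted p = 0.00849 for Mrpl33; -0.40, adjusted p = 0.0334 for Mrps11). Mrpl33 encodes the counterpart of the small bacterial protein L33 (chr5:31613951-31622644). It had 157, 156 and 151 footprint CPM in knockdown libraries, against 100, 108 and 98.8 CPM in scrambled libraries, groups that lay far apart (0.59 ± 0.14, adjusted p = 0.00332). The RNA of Mrpl33 was 40.3, 44.9 and 47 CPM in knockdown and 54.3, 62 and 40.6 CPM in scrambled libraries and overlapped (-0.25 ± 0.14, adjusted p = 0.162). Mrps11 encodes a platform protein that touches messenger RNA near the exit of its channel (chr7:78783131-78792988). Its footprints were 38.8, 38.1 and 33.8 CPM in knockdown and 21.1, 23.2 and 22.6 CPM in scrambled libraries (0.73 ± 0.22, adjusted p = 0.0189), again without overlap. The RNA of Mrps11 was 29.8, 23.7 and 24.9 CPM in knockdown and 29, 39.2 and 29.5 CPM in scrambled libraries (-0.33 ± 0.15, adjusted p = 0.0781). The footprint call of Mrpl33 held under all 15 alternatives, and that of Mrps11 was lost with DESeq2 (adjusted p = 0.106), without knockdown replicate 1 (adjusted p = 0.136) and without scrambled replicate 1 (adjusted p = 0.0879).

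**Figure D3:**
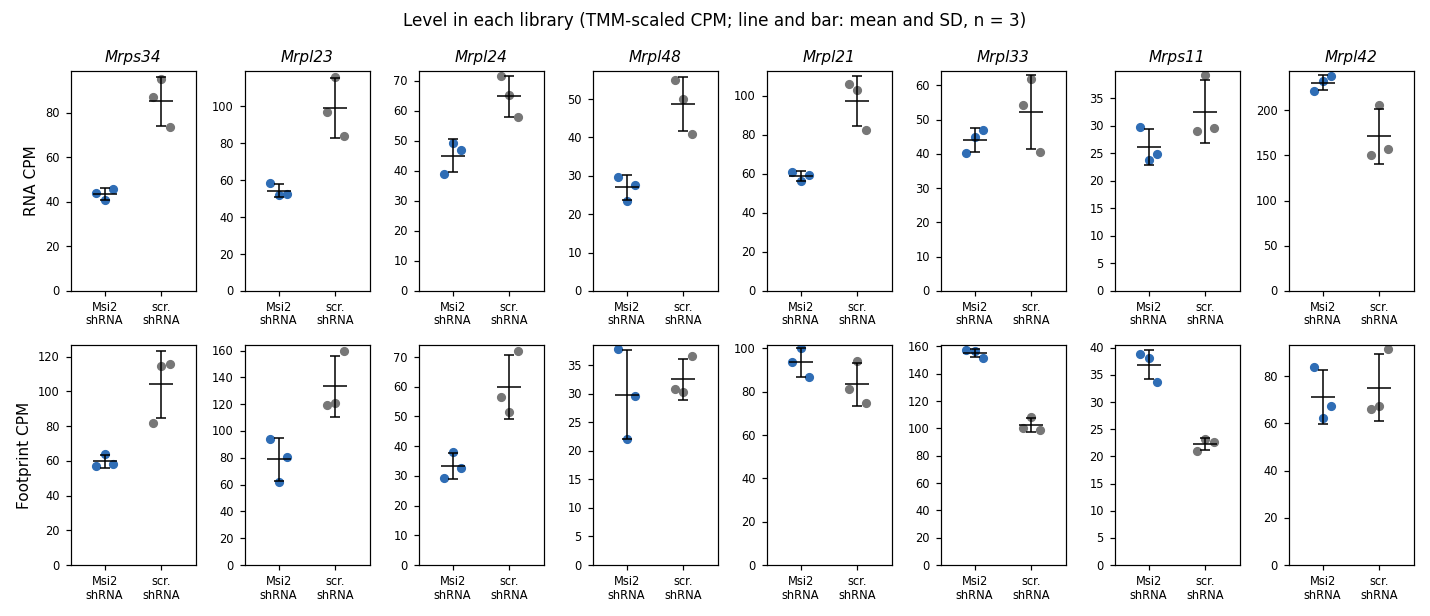
RNA (top) and footprint (bottom) level of 8 genes in each library as TMM-scaled CPM, with Msi2 shRNA left and scrambled shRNA right in each panel; the line and whiskers give the mean and SD of 3 libraries. Mrps34, Mrpl23 and Mrpl24 are lower in knockdown in both rows, Mrpl48 and Mrpl21 are lower in RNA and overlap in footprints, Mrpl33 and Mrps11 are higher in footprints, and Mrpl42 is higher in RNA.

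The ratio of footprints to RNA, a measure of how densely a gene's RNA is occupied by ribosomes, was fitted over all 12 libraries as the difference between both changes. At an adjusted p under 0.05 it was higher in knockdown for 1 of the 76 genes, Mrpl21, and lower for 0, with 0.129% of 10821 genes higher and 0.0739% lower. The fitted ratio was above 0 for 71 genes (93.4%), against 51.8% of all genes, and the median log2 change was 0.35, against 0.02. An unadjusted p under 0.05 was reached by 24 genes (31.6%) on the higher side, where 6.99% of all genes lay, and by 0 on the lower side. The ratio uses the same RNA libraries as the RNA comparison, so a low RNA value enters both. Without scrambled RNA replicate 2 the median of the 76 genes was 0.18 (all genes: -0.05), without knockdown RNA replicate 2 it was 0.23 (all genes: -0.05), and without scrambled RNA replicate 3 the number called was 5.

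Mrpl21, the counterpart of bacterial L21 (chr19:3282997-3292837), had 61, 56.2 and 59.2 RNA CPM in knockdown and 106, 103 and 82.5 CPM in scrambled libraries, without overlap (-0.73 ± 0.12, adjusted p = 0.000131). Its footprints were 93.7, 100 and 87 CPM in knockdown and 81.2, 94.4 and 74.8 CPM in scrambled libraries, which overlapped (0.13 ± 0.16, adjusted p = 0.647). The ratio changed by 0.87 ± 0.20 (adjusted p = 0.0496), a call that held under 6 of 19 alternatives. Mrps11 (1.08 ± 0.26, adjusted p = 0.065) and Mrpl33 (0.85 ± 0.20, adjusted p = 0.0551) missed the threshold, as did Mrpl48, whose footprints were 37.8, 22.1 and 29.7 CPM in knockdown and 30.7, 30.2 and 36.7 CPM in scrambled libraries (ratio 0.90 ± 0.26, adjusted p = 0.138). Under the same 19 alternatives the ratio of Mrpl33 passed in 5, that of Mrps11 in 3 and that of Mrpl48 in 1. Mrpl21 is thus little apart from Mrpl33 in this respect. Mrpl24 was fitted below 0 (-0.30 ± 0.23, adjusted p = 0.635), as were Mrpl30, Mrps2, Mrps7 and Mrpl42.

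Set side by side, 54 of the 59 genes with lower RNA passed in neither direction in footprints, and 5 were lower in both. The 59 genes had medians of -0.52 in RNA, -0.19 in footprints and 0.36 in the ratio. The 2417 genes called lower in RNA over the whole table had -0.59, -0.33 and 0.26. Of those tested in footprints 25.1% were lower there too, against 8.47% of the 59. Both sets were picked by low RNA in the same libraries that enter the ratio. They are also unlike in size of change, with RNA changes down to -7.48 in the 2417 genes and to -0.97 in the 59. The difference between the sets was not tested. Footprint change exceeded RNA change in 70 of the 76 genes (92.1%), and in 51.8% of all genes tested in both assays. Pearson's r between RNA and footprint change, across genes and as a description only, was 0.51 over the 76 genes and 0.74 over 8918 genes; genes of 1 library share its depth and are not independent.

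**Figure D4:**
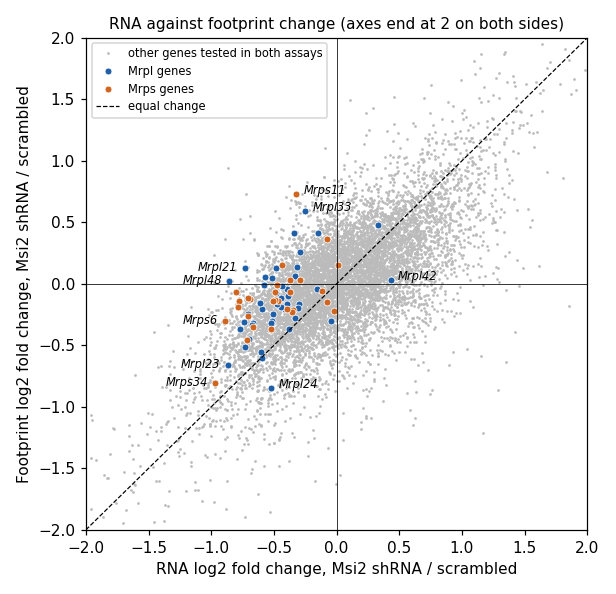
Footprint log2 fold change against RNA log2 fold change (Msi2 shRNA over scrambled shRNA) for Mrpl genes (blue), Mrps genes (orange) and other genes tested in both assays (grey); the dashed line marks equal change, and points beyond 2 on either axis are not drawn. Of the 76 genes 70 lie above the line and 73 lie left of 0 in RNA, with Mrps34, Mrpl23 and Mrpl24 lowest in footprints among those named.

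In scrambled cells the footprint-to-RNA level, in which gene length cancels, had a median of -0.35 on the log2 scale over the 76 genes and -0.06 over all genes. It ranged from -1.92 for Mrpl30 to 0.94 for Mrpl34, with medians of -0.30 for Mrpl and -0.49 for Mrps genes. Mrps28 and Mrpl33 were among the higher ones, at 0.77 and 0.78, and Mrpl42 (-1.43) and Mrpl11 (-1.15) among the lower ones. In knockdown cells the same quantity was 1.52 for Mrps28, 1.64 for Mrpl33, -1.81 for Mrpl42 and -0.57 for Mrpl11.

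Promoter sequences from RefSeq (GRCm38.p6, 250 bases before to 50 after a gene's start) were found for 67 of the 76 genes. NRF1, ETS factors such as GABP (NRF2 in the older literature) and YY1 are known to bind near the start of many nuclear genes for mitochondrial proteins, so a core of each was searched on both strands: GCATGCG for NRF1, CCGGAAG for ETS and AAGATGG for YY1. The ETS letters were in 24 promoters (35.8%), the YY1 letters in 13 (19.4%) and the NRF1 letters in 8 (11.9%). Among the 8965 genes tested in RNA that have a promoter entry the shares were 21.6, 8.68 and 7.71%, and among all 27025 promoters 9.93, 7.28 and 4.01%. Any of the 3 stood in 36 (53.7%), against 33.5% of the tested genes. No match was found for Mrps34, Mrps9, Mrpl23, Mrps6 or Mrpl2, and whether each has a promoter entry is not given here. The start is that of the promoter entry, which can lie inside the gene's interval. For Mrpl48 the window lies inside chr7:100545779-100608301 and not at its upstream end. The windows that follow are a choice among the matches of genes named above, and other matches of such genes are not printed. Each window is given on the gene's strand, 5' to 3', with the matched letters in capitals:
Mrpl21 (ETS, reverse strand, chr19:3283039-3283065, + strand): gctgcttccgCTTCCGGttgggactgt
Mrpl48 (ETS, reverse strand, chr7:100583148-100583174, - strand): gttttaaaaaCTTCCGGaaccaagatg
Mrps16 (ETS, reverse strand, chr14:20393450-20393476, - strand): gtgcgcggggCTTCCGGgcgggcgtgg
Mrps18a (ETS, chr17:46110968-46110994, + strand): cacccctgctCCGGAAGcggaagtgca
Mrpl33 (ETS, chr5:31613938-31613964, + strand): cgcgcatgccCCGGAAGtagtcgttga
Mrpl17 (NRF1, chr7:105811080-105811106, - strand): gagttactgcGCATGCGtcctctgaga
Mrpl10 (NRF1, chr11:97041438-97041464, + strand): ccagctccacGCATGCGcatagcggcc
Mrps18a (YY1, chr17:46111005-46111031, + strand): ggtgcgttccAAGATGGcggccctcag
Mrpl42 (YY1, chr10:95501906-95501932, - strand): agattgaagcAAGATGGcgagcgcgcg
Mrps11 (YY1, reverse strand, chr7:78783015-78783041, + strand): acgggcgccgCCATCTTtctgtcttcc

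A match is a run of letters and not a measured site. In several genes the letters lie at the start itself: the ETS match covers bases -3 to 3 in Mrpl33 and 7 to 13 in Mrpl21, counted from the start site, and the YY1 match bases 11 to 17 in Mrps18a and 27 to 33 in Mrpl42. Median RNA change differed little by ETS letters (-0.50 in the 24 genes with them, -0.43 in the 43 without) and by NRF1 letters (-0.49 in 8 and -0.47 in 59). For YY1 the medians were -0.33 in the 13 genes with the letters and -0.49 in the 54 without, with 7 and 44 lower. The higher gene Mrpl42 and the lower gene Mrps18a both carry YY1 letters downstream of the start.

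Many of these genes share their promoter region with a neighbour. A coding gene on the other strand started within 1000 bp of 23 of the 67 genes (34.3%), against 14.0% of tested genes with a promoter entry. The RNA of these 23 genes had a median change of -0.44, whereas that of their 21 tested neighbours from outside the family had a median of 0.26, with 8 higher and 5 lower (22% and 21.7% over all genes). Mrpl21 and Ighmbp2, a helicase gene, start 32 bp apart and differed by sign, at -0.73 for Mrpl21 and 0.68 ± 0.15 for Ighmbp2 (adjusted p = 0.0016). Mrps18b (-0.47) faces Ppp1r10, a regulatory subunit of protein phosphatase 1, at 0.92 ± 0.12 (adjusted p = 1.93e-05), 756 bp away. Mrps18c (-0.47) faces the helicase gene Helq at 0.61 ± 0.14 (adjusted p = 0.00213), and Mrpl14 (-0.71) faces the ion channel gene Tmem63b at 0.43 ± 0.11 (adjusted p = 0.00557). In other pairs both partners were lower, as in Mrpl32 and the proteasome gene Psma2 (-0.51 and -0.43) or Mrpl47 and the complex I gene Ndufb5 (-0.38 and -0.43). Mrpl46 and Mrps11 are each other's neighbours, 42 bp apart, at -0.60 and -0.33. The difference between partners was not tested.

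**Figure D5:**
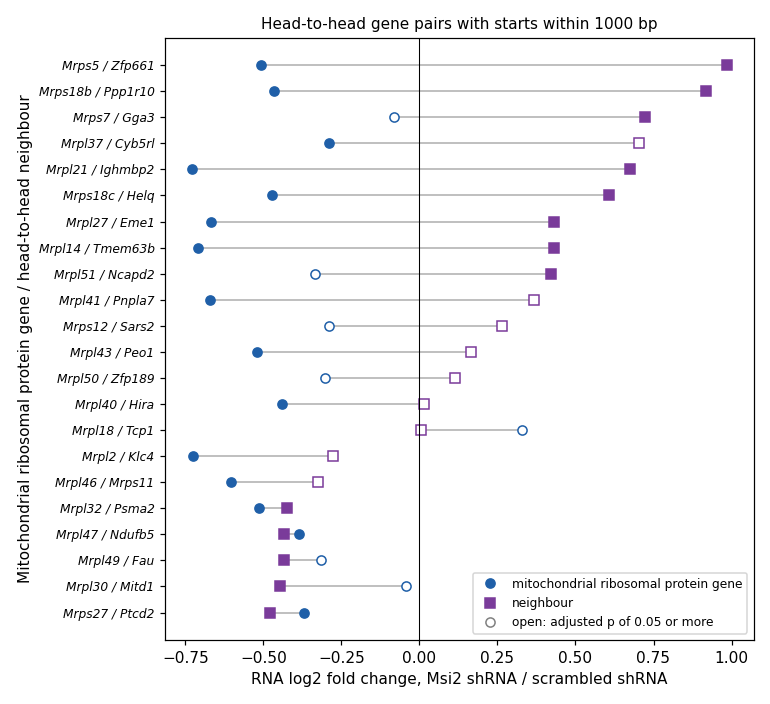
RNA log2 fold change (Msi2 shRNA over scrambled shRNA) of mitochondrial ribosomal protein genes (circles) and of the coding gene that starts within 1000 bp on the other strand (squares), 1 pair per line, ordered by the neighbour; filled symbols have an adjusted p under 0.05. Neighbours range from -0.48 (Ptcd2) to 0.98 (Zfp661), while the mitochondrial ribosomal protein genes other than Mrpl18 lie below 0; Peo1 is the table's older symbol for Twnk, and Mrps11 stands as the neighbour of Mrpl46.

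Other nuclear genes of mitochondrial translation were read against the same background, 21.7% lower and 22% higher in RNA over all genes tested. Of 7 ribosomal proteins with other names 5 were lower in RNA (median -0.48), led by Aurkaip1 (-0.71 ± 0.12, adjusted p = 0.000147) and the peptidyl-tRNA hydrolase Ict1 (-0.64 ± 0.12, adjusted p = 0.000466). Of 22 assembly and rRNA modification factors 9 were lower and 0 higher (median -0.27). Among them Ngrn had 34, 35.5 and 32.3 CPM in knockdown and 80.5, 64.9 and 55.8 CPM in scrambled libraries (-0.99 ± 0.13, adjusted p = 2.9e-05), and the rRNA methyltransferase gene Tfb1m stood at -1.34 ± 0.20 (adjusted p = 8.6e-05). For translation factors the count was 6 of 14 lower and 0 higher (median -0.29), with the elongation factor Tsfm at -0.67 ± 0.13 (adjusted p = 0.000484) and the insertase Oxa1l at -0.41 ± 0.10 (adjusted p = 0.00389). Genes for the copying and transcription of mitochondrial DNA and for mitochondrial RNA stability were mixed. Of 13, 1 was lower, Ssbp1 (-0.48 ± 0.11, adjusted p = 0.00279), and 2 were higher, Pnpt1 (0.47 ± 0.11, adjusted p = 0.0028) and Polg (0.41 ± 0.12, adjusted p = 0.00824).

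Regulators of mitochondrial biogenesis did not move as a body, with 11.1% higher and 11.1% lower in RNA, below the 22% and 21.7% of all genes. Of 9 tested, 1 was higher, the coactivator Pprc1 (0.44 ± 0.12, adjusted p = 0.00613), and 1 lower, the nuclear receptor Esrra (-0.36 ± 0.13, adjusted p = 0.029), with a median of -0.08. Import and chaperone genes had 9 of 17 lower and 0 higher (median -0.35), led by the matrix chaperone Hspa9 (-0.75 ± 0.13, adjusted p = 0.000185) and Vdac3 (-0.62 ± 0.11, adjusted p = 0.000389). Complex I, whose core holds proteins made on mitochondrial ribosomes, had 33 of 36 nuclear genes lower and 0 higher (median -0.62; footprints -0.18, ratio 0.41). There Ndufa13 (-0.97 ± 0.12, adjusted p = 1.3e-05) and Ndufv1 (-0.77 ± 0.11, adjusted p = 5.8e-05) had the smallest p. Of 74 cytosolic ribosomal protein genes tested in RNA 19 were lower (25.7%, near the 21.7% of all genes) and 3 higher (median -0.20). The lower ones were led by Rpl5 (-0.58 ± 0.13, adjusted p = 0.00239) and Rpl3 (-0.52 ± 0.13, adjusted p = 0.00409). Of 73 tested in footprints 0 were lower and 9 higher (12.3%, median 0.12), against 7.38% lower and 8.76% higher over all genes. Differences between these groups of genes were not tested.

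Msi2 binding was looked up in the list of 2671 regions in 3' UTRs, which names 1199 genes. None of the 76 mitochondrial ribosomal protein genes is in it (0 of 76), and so none with a height of at least 20 either. Of the genes tested in RNA 10.3% are in the list, and 13.2% would be at the RNA level of the 76 genes (10 bins of expression). This match took no account of the length of the gene or its 3' UTR. The 76 genes are short (median span 7690.5 bp against 23628 bp), and the part of length in the absence of regions was not tested. All 5 CLIP libraries feed this list, and every region holds a peak height of at least 10, so weaker contacts are outside what it can show. In the full list of 4051 regions, the interval of 1 gene, Mrps6, overlaps 6 regions on the + strand, from chr16:92081530-92081646 to chr16:92087173-92087475. The tallest, chr16:92083184-92083584, has a height of 41. All 6 are assigned in the 3' UTR list to Slc5a3, the myo-inositol transporter gene, whose span (chr16:92058322-92087473) starts 14 bp from Mrps6 and lies almost wholly within its interval. The sources used here do not state how reads of such overlapping genes were counted. The 6 regions held 3, 28, 19, 22 and 32 reads in CLIP replicates 1 to 5, or 0.0454, 0.0626, 0.0374, 0.0357 and 0.0596% of each library's reads in listed regions. Of the other lists, the 3' UTR list named 1 of 7 other-named ribosomal proteins (Ict1, 14.3%), 1 of 14 translation factors (Taco1, 7.14%), 2 of 10 regulators (Myc and Yy1, 20.0%) and 3 of 17 import genes (Hspa9, Vdac1 and Vdac2, 17.6%). It named 0 of 36 complex I and 0 of 79 cytosolic ribosomal protein genes. These shares were not tested against the 10.3% of tested genes.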

How the data were processed

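The authors deposited raw counts per gene, taken over coding sequence, for RNA and footprints; TopHat, HTSeq and DESeq and the build mm10 are named in the submitters' processing notes without versions. The deposited peak lists give, per region, a signal (total peak height over the 5 CLIP libraries) and each library's counts; cutadapt and Novoalign are named in the same notes, and the peak caller is not given in the sources used here.

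Counts were fitted in R 4.3.3 with edgeR 4.0.16 (filterByExpr, minimum count 10 and total 15; TMM; quasi-likelihood F test with robust fitting; Benjamini-Hochberg adjustment over all genes tested; threshold 0.05), RNA and footprints apart, and the ratio as the interaction of assay and knockdown over 12 libraries. The SE is the log2 fold change over the square root of F. Scripts were tested on simulated data. Lines that name no gene stayed out of library sizes; in RNA, reads without a gene made up 34.4 ± 0.950% of the total in knockdown and 33.5 ± 1.07% in scrambled libraries. Alternatives were DESeq2 1.42.0, limma-voom (limma 3.58.1), upper-quartile factors, no filter, 10 CPM in 3 libraries, a replicate block, 1 fit over 12 libraries, removal of the trend with genomic span (loess, span 0.5), leaving out libraries, and other peak sets.

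Gene positions and promoters came from RefSeq tables of GRCm38.p6, the assembly behind mm10, matched by symbol or synonym. Place in the ribosome and ancestry were assigned from general knowledge. Named genes are Msi2, the 12 members with the smallest RNA p, members called in footprints or the ratio or against the majority, Mrps6 for its peaks, the S18 paralogues, stalk proteins and the 2 genes of each other list with the smallest p; other genes, such as those at the ends of a range, were named after their values were seen. A part of the rule that ranks levels per length was not applied, since no coding lengths were used here. Members, lists and tests were chosen with earlier results of these data known.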

Additional observations from a re-analysis of the deposited data

Results flagged for a closer look

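Mrpl21 was singled out because its RNA and footprint changes differed by the test of the difference itself. Its footprint-to-RNA ratio changed by 0.87 ± 0.20 on the log2 scale (adjusted p = 0.0496, edgeR's quasi-likelihood test), with lower RNA in 3 of 3 knockdown libraries and overlapping footprints. Over the 19 alternatives the value ranged from 0.73 to 0.99 and the adjusted p from 0.01 to 0.219. The interval of Mrpl21 overlaps that of Ighmbp2, which starts 32 bp away on the other strand. Counts were taken over coding sequence, and the part of reads from Ighmbp2 in the result was not tested.

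CLIP reads fell inside the interval of Mrps6, although the 3' UTR list does not name that gene. The 6 regions there held 104 reads over the 5 libraries, and the 3' UTR list assigns all 6 to Slc5a3. The libraries' shares of reads there ran from 0.0357 to 0.0626%. Dixon's test for an outlier flagged no library (gap over range 0.111, critical value 0.71). With 5 libraries, 1 of them holding 3 reads, that test could flag only a wide gap.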

How the results depend on the processing

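The number of mitochondrial ribosomal protein genes with lower RNA stayed between 45 and 66 under all 14 alternatives, and 40 of the 59 genes were called lower under every one. Higher RNA was called for 2 genes with the span trend removed and with limma-voom, and for 0 to 2 when 1 library was left out. Lower footprints were called for 3 genes with DESeq2 and with the span trend removed, and for 3 to 7 when 1 library was left out (3 without knockdown replicate 1, knockdown replicate 3 or scrambled replicate 2). Higher footprints were called for 1 gene with DESeq2 and for 1 to 3 when 1 library was left out (1 without knockdown or scrambled replicate 1). The ratio was called higher for 3 genes with DESeq2 and with no filter, for 2 with the span trend removed and limma-voom, for 0 with upper-quartile factors and the 10 CPM filter, and for 0 to 5 when 1 library was left out. Matching all regions by position, in place of the gene named in the 3' UTR list, put regions in the interval of 1 gene, Mrps6; its 6 regions are in the 3' UTR list under Slc5a3, so the matching by position made the change.

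Libraries with the same number did not deviate together (correlations of 0.0573, -0.276 and -0.227 in RNA, and of 0.0503, 0.0291 and -0.0025 in footprints). Across different numbers the RNA correlations ran from -0.109 to 0.305. The highest were knockdown 2 with scrambled 3 (0.305) and knockdown 3 with scrambled 2 (0.241). The labels do not say which libraries belong together, so the replicate block, set by number, is only an alternative. With the block 50 genes were lower and 1 higher in RNA, 5 and 2 in footprints, and 0 passed in the ratio.

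Among values of single named genes, 979 stayed on their side of the threshold, 35 lost a call and 14 gained one. The 28 changes of sign concerned uncalled values near 0. In footprints, Mrpl48 was at -0.022 with DESeq2, -0.031 with the replicate block and -0.012 with the span trend removed; Mrpl42 at -0.0020 with DESeq2 and -0.0091 with the replicate block; Mrps18c at 0.013 with DESeq2, 0.030 with the replicate block, 0.060 with the span trend removed and 0.0078 with 1 fit over all libraries; and Mrpl12 at 0.0043 with the replicate block, 0.060 with the span trend removed and 0.0051 with limma-voom. Leaving out 1 library gave -0.23 to 0.14 for Mrpl48, -0.18 to 0.084 for Mrps28, -0.14 to 0.15 for Mrpl42, -0.17 to 0.17 for Mrps18c and -0.11 to 0.12 for Mrpl12, and -0.30 to 0.050 for Mrpl11 in RNA. The cause was not tested. Without the shallowest footprint library of each group, 6 genes were lower and 2 higher in footprints; the smallest library holds 512256 counts.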

Other observations

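Slc5a3, which shares its start region with Mrps6, had 10, 6 and 6 RNA counts in knockdown and 8, 5 and 8 in scrambled libraries, too few to be tested, and 37, 11 and 21 footprint counts in knockdown and 54, 61 and 24 in scrambled libraries. How reads shared by overlapping genes were counted is not given in the sources used here, so the RNA counts of Slc5a3, and those of Mrps6, whose interval holds nearly all of it, are uncertain as levels. Footprints of Slc5a3 did not pass the test (-0.26 ± 0.26, adjusted p = 0.561).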
